A study of Homo sapiens with 12 samples.

Results

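The comparison described here asked what the inducer compound 5-Ad-IAA does by itself in WT T24 cells. It rests on 6 of the 12 poly(A) RNA-seq libraries of the series, chosen by their genotype and treatment labels: 3 of WT cells with no treatment and 3 of WT cells with 5-Ad-IAA, with replicate numbers 1 to 3 in both groups. The other 6 libraries, 3 untreated and 3 treated, carry the genotype label NS1. They share the estimate of the spread with the WT libraries and give a yardstick for size. T24 is a human bladder carcinoma line, known for an activating mutation of HRAS. The series concerns AlissAID, a method that removes untagged proteins with an auxin degron. The dose, the time, the vehicle and any degron component in the WT cells are not given in the sources used here. The labels do not say whether replicates were separate cultures, so the p-values below measure only the spread between these libraries, which may be technical.

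Auxin is a plant hormone that acts as molecular glue. It holds a target protein against TIR1, a plant F-box protein, which joins the SCF ubiquitin ligase and marks the target for the proteasome. Human cells have no TIR1 of their own, and 5-Ad-IAA is an adamantyl derivative of indole-3-acetic acid that was made to fit a mutated TIR1. Indoles are also ligands of the aryl hydrocarbon receptor (AHR), a sensor that pairs with ARNT on DNA and switches on CYP1A1, the classic enzyme of foreign-compound metabolism.

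The 6 WT libraries held 10593934 to 20266996 counts, and replicate 1 was the deepest in both groups. Mitochondrially encoded genes took 2.14% ± 0.776 (SD, n = 3) of the counts in untreated cells and 2.13% ± 0.657 (SD, n = 3) in treated cells, and the 10 highest genes of each library took 6.37% ± 0.495 and 6.36% ± 0.347. Replicate 1 stood apart from replicates 2 and 3 in both groups. Deviations from the group means correlated over genes by 0.75, 0.38 and 0.26 between untreated and treated libraries of the same number. Untreated replicate 2 correlated by 0.37 with treated replicate 3, and untreated replicate 3 by 0.25 with treated replicate 2, so the values set replicate 1 apart and do not tell replicates 2 and 3 from each other. The numbers were read as pairs, and values from a fit with a replicate block within each line are given where they differ.

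Both WT groups shared one baseline programme, described here as normalised CPM (counts scaled to library size) per kilobase of exon so that genes can be compared. T24 cells held simple epithelial keratins at high levels. KRT7, a keratin of urothelium and other simple epithelia, stood at 521 ± 176 (SD, n = 3) per kilobase in untreated and 514 ± 141 (SD, n = 3) in treated cells. KRT18 stood at 341 ± 66.4 and 363 ± 31.1, KRT8 at 273 ± 38.5 and 285 ± 11.9, and KRT19 at 91.6 ± 17.5 and 90.5 ± 5.61. The groups overlapped for all 4 keratins.

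Some regulators of luminal urothelium were present at lower levels per kilobase. Of 13 luminal markers listed, 7 passed the filter on low counts and 6 did not. PPARG, a nuclear receptor of urothelial differentiation, stood at 11.8 ± 4.3 in untreated and 11.4 ± 4.6 in treated cells (SD, n = 3). GATA3 stood at 9.59 ± 4.33 and 8.68 ± 3.79, FOXA1 at 6.89 ± 2.6 and 6.87 ± 2.25, and the receptor kinase ERBB2 at 9.16 ± 0.778 and 9.15 ± 0.46. GATA3, FOXA1 and PPARG were highest in replicate 1 of both groups. Of 5 uroplakins, plaque proteins of the umbrella cells that line the bladder, 4 were at or near 0. UPK3A had 0 counts in all 6 libraries, and UPK1A, UPK1B and UPK3B had at most 0.371, 0.0967 and 0.422 CPM. The umbrella cell keratin KRT20 had 0 counts in 5 libraries and 2 in the other. UPK2 was the exception and stood at 1.68 ± 0.165 and 1.74 ± 0.296 per kilobase (SD, n = 3). In bulk RNA, a low level in all cells and a high level in few cells cannot be told apart.

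Of 13 basal and squamous markers listed, 5 passed the filter on low counts and 8 did not. KRT5, KRT14 and TP63 had 0 counts in each of the 6 libraries. The hyaluronan receptor CD44 lay between 79.9 and 103.1 per kilobase in the 6 libraries. The laminin receptor subunit ITGA6 stood at 90.3 ± 18.8 and 86.8 ± 18.1 (SD, n = 3). ITGB4, the hemidesmosome partner of ITGA6, split by replicate number and not by treatment. It had 3361, 215 and 150 counts in untreated replicates 1, 2 and 3 and 3320, 186 and 212 in the treated ones, so both replicate 1 libraries were far above the other 4.

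Epithelial junction genes were low, and mesenchymal genes ranged from absent to high. E-cadherin, CDH1, had 2, 0 and 1 counts in untreated and 1, 0 and 1 in treated replicates 1 to 3, and its regulator GRHL2 had 0 CPM in all 6 libraries. EPCAM stood at 1.2 ± 0.507 and 1.14 ± 0.331 per kilobase (SD, n = 3). Fibronectin, FN1, stood at 309 ± 176 in untreated and 284 ± 147 in treated cells, the receptor kinase AXL at 98.7 ± 5.81 and 98.2 ± 6.58, N-cadherin (CDH2) at 18.7 ± 2.55 and 18.1 ± 1.44, and vimentin (VIM) at 13.5 ± 3.15 and 12.8 ± 2.53. ZEB1, a repressor of CDH1, stood at 2.95 ± 0.445 and 3.03 ± 0.623, and TWIST1 was at 0 in all 6 libraries. Of 50 epithelial and mesenchymal markers listed, 22 reached 1 CPM per kilobase.

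**Figure D1:**
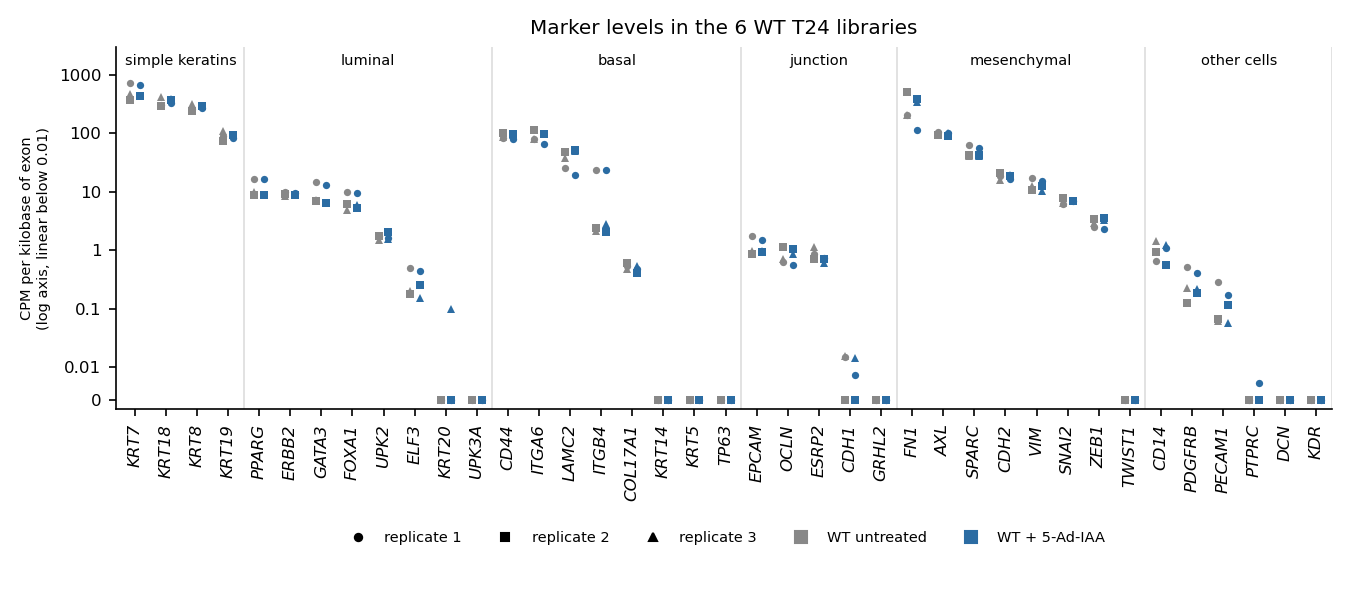
Level of 39 markers in each of the 6 WT libraries, in CPM per kilobase of exon on a log axis that is linear below 0.01. Grey symbols are untreated and blue symbols 5-Ad-IAA libraries, and the symbol shape gives the replicate number. KRT7 reaches 715.9 and FN1 511.9, KRT5, KRT14, TP63, GRHL2 and TWIST1 lie at 0, and for ITGB4 both replicate 1 libraries lie above the other 4.

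The labels give T24 only by its name. Keratins and some luminal regulators were present in these cells. The terminal markers of urothelium other than UPK2 and the basal markers KRT5, KRT14 and TP63 were at or near 0. CD44 and ITGA6, from the same basal list, were high. CDH1 and GRHL2 were at or near 0 too. Mesenchymal genes were mixed: AXL and, with a wide spread between libraries, FN1 were high, CDH2 and VIM lower, ZEB1 low and TWIST1 at 0. Markers of other cell types were close to absent in both groups. The summed CPM of 7 immune markers ran from 1.31 to 3.0 in untreated and 1.41 to 3.06 in treated libraries, and PTPRC had at most 1 count in a library. The sum of 6 endothelial markers ran from 1.16 to 3.42 and from 0.72 to 2.18, and KDR was at 0. The sum of 7 fibroblast markers ran from 2.63 to 7.73 and from 2.67 to 6.22, and DCN and LUM were at 0.

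The most abundant nuclear protein-coding transcripts per kilobase, chosen after their values were seen, were those of structure and housekeeping. TMSB10, an actin-binding thymosin, stood at 2688 ± 603 in untreated and 2779 ± 277 in treated cells (SD, n = 3). GAPDH, of glycolysis, stood at 2610 ± 549 and 2654 ± 277. FTH1, the heavy chain of the iron store ferritin, stood at 2273 ± 728 and 2163 ± 453. Beta-actin (ACTB), the elongation factor EEF1A1, ACTG1, the galectin LGALS1, the metallothionein MT2A, the ferritin light chain FTL and the glycolytic enzyme ENO1 followed. The 10 highest rows over all gene types also held MT-CO1 and copies whose reads cannot be told from those of a parent gene, such as EEF1A1P5, EEF1A1P6 and RPL41P1, and these levels are uncertain.

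No gene passed the test for a change with 5-Ad-IAA in WT cells. Of 17775 genes tested by edgeR's quasi-likelihood test with Benjamini-Hochberg adjustment, 0 (0%) were called at an adjusted p under 0.05, and 94 (0.529%) had an unadjusted p under 0.05. With the replicate block within each line 0 were called and 476 (2.68%) had an unadjusted p under 0.05. Both shares lie below 0.05, the share that uniform p-values would give with no change at all. A low share of this kind is therefore no evidence of an absent effect. DESeq2 called 0, with 22 at an unadjusted p under 0.05. The normalised CPM of the groups did not overlap for 606 genes, which is 3.41%. With 3 against 3 exchangeable libraries and no change, a share of 0.1 would be expected. Groups without overlap are thus no evidence of a change for a single gene. The estimate was above 0 for 49.7% of genes, and the median size of a change was 0.073 on the log2 scale.

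The data also set a limit on the size of change that could have gone unseen. The 95% interval of the log2 fold change lay inside 2-fold in both directions for 15665 genes (88.1%) and inside 1.5-fold for 11685 (65.7%). With the replicate block within each line these counts were 16566 (93.2%) and 13908 (78.2%). For the remaining 2110 genes a change of 2-fold or more was not excluded by the interval at this depth and spread.

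The limit depended on the level of a gene. Among 2049 genes with a mean of at least 100 CPM, the median half-width of the interval was 0.275 on the log2 scale, a factor of 1.21, and 99.6% of the genes had the interval inside 2-fold. Among 8519 genes at 10 to 100 CPM the half-width was 0.306, a factor of 1.24, and the share 98.9%. Among 5826 genes at 1 to 10 CPM they were 0.54, a factor of 1.45, and 84.7%. Among 1381 genes under 1 CPM the half-width was 0.966, a factor of 1.95, and only 19.2% had the interval inside 2-fold. The block narrowed the median half-widths to 0.16, 0.193, 0.402 and 0.822 in the same order.

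Gene classes differed in the same measure. The interval lay inside 2-fold for 91.8% of 12941 protein-coding genes, 82.5% of 1870 pseudogenes, 76.3% of 2611 long non-coding genes and 64.1% of 181 small or mitochondrial RNA genes. Long non-coding genes had a median half-width of 0.557, against 0.338 for protein-coding genes. No class held a called gene.

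**Figure D2:**
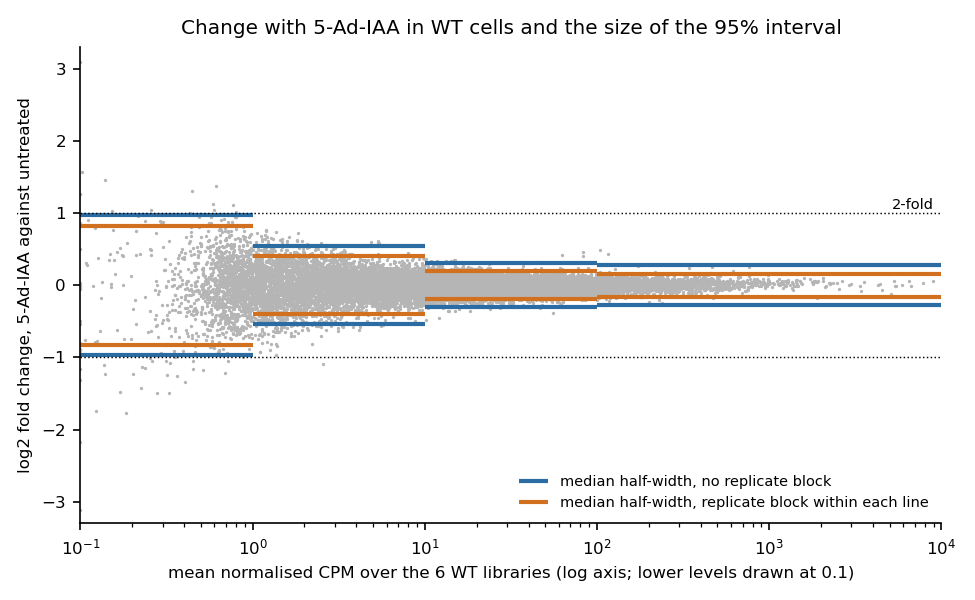
Each grey point is 1 of 17775 genes, with the mean normalised CPM of the 6 WT libraries on a log x axis and the log2 fold change with 5-Ad-IAA on the y axis. Blue and orange bars give the median half-width of the 95% interval in 4 classes of level, without and with the replicate block, and narrow from 0.966 to 0.275 and from 0.822 to 0.16.

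The AHR genes were examined first among the gene lists, since 5-Ad-IAA carries an indole ring. Of 7 listed targets, 4 passed the filter on low counts, 2 lay higher and 2 lower, and 0 were called, as for all genes. Their median log2 change was -0.04, against -0.001 over all genes tested. CYP1A1 had 19, 1 and 1 counts in untreated replicates 1, 2 and 3 and 13, 7 and 2 in the treated ones, too few to be tested. The highest count was thus in an untreated library and the groups overlapped. CYP1B1, a related cytochrome, had 4, 6 and 0 against 7, 4 and 1 counts, and CYP1A2 had 1 count in 1 untreated library and 0 in the other 5.

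The promoters of 2 of these targets are shown for matches to the short core motif of the AHR, GCGTG, read on either strand (CACGC on the other). RefSeq on GRCh38.p14 gave windows for 5 of the 7 targets. The sequences are the 250 bases before a start site, 5′ to 3′ on the strand of the gene, with the motif in capitals. CYP1A1 lies at chr15:74725529-74725778 on the minus strand and holds 1 motif. The first listed start site of TIPARP, a mono-ADP-ribosyltransferase that represses AHR, lies at chr3:156674340-156674589 on the plus strand and holds 2.
CYP1A1: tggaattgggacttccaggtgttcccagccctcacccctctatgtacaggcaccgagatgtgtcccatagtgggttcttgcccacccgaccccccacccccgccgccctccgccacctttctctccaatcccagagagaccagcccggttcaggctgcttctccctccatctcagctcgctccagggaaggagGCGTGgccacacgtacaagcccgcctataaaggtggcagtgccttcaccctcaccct
TIPARP: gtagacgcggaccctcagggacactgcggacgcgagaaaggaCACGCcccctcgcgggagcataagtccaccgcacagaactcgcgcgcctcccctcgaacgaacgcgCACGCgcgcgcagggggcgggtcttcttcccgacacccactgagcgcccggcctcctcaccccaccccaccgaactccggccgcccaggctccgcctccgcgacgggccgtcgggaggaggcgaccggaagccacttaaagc
The same motif is in 32.2% of 35116 such windows. The windows of AHRR hold it too, those of CYP1A2 and NQO1 and the later start sites of TIPARP do not. A match is a description of the letters and not evidence of a bound site.

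TIPARP itself had 30.3, 32.2 and 28.0 CPM in untreated and 31.4, 24.8 and 27.1 in treated replicates 1 to 3. The groups overlapped, and the log2 change was -0.12 with a 95% interval from -0.37 to 0.14. NQO1, a quinone reductase under AHR and NRF2, had 317, 301 and 336 against 357, 323 and 299 CPM, a log2 change of 0.04 with an interval from -0.32 to 0.39. Both intervals exclude a change of 1.5-fold in either direction. AHRR, the AHR repressor, stood near 1 CPM, and its interval from -0.71 to 1.14 did not exclude a 2-fold rise. ALDH3A1, an aldehyde dehydrogenase, had 2.16, 0.3 and 0.0967 against 1.66, 0.297 and 0 CPM, with an interval from -2.41 to 1.67, and was highest in replicate 1 of both groups. Its log2 change of -0.37 was 1.84 without untreated replicate 1 and -2.58 without treated replicate 1.

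The receptor machinery was present at measurable levels. AHR had 17.0, 16.2 and 11.6 CPM untreated and 18.0, 14.4 and 13.1 treated, and ARNT 23.1, 22.7 and 19.3 against 20.8, 21.1 and 21.6. The groups overlapped for both. Of 7 genes of the receptor complex, with the chaperones HSP90AA1, HSP90AB1 and PTGES3, all had the interval inside 2-fold and 0 were called, with a median log2 change of 0.02.

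Genes that handle tryptophan and indoles, the natural relatives of the compound, gave 10 tested of 14 listed, 0 called, and a median log2 change of 0.0. IDO1, the first enzyme of the kynurenine route, had 6.89, 1.58 and 0.87 CPM untreated and 4.08, 1.34 and 1.17 treated. Replicate 1 was the highest in both groups, and replicate 3 alone was higher with treatment. The log2 change was -0.53 with an interval from -1.84 to 0.79, and with the block from -0.96 to -0.09 at an unadjusted p of 0.0212, not called. WARS1, the tryptophanyl-tRNA synthetase, had 225, 203 and 211 against 244, 212 and 238 CPM, an interval from -0.13 to 0.36.

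Other sensors of foreign compounds held no called gene. Of 7 targets of the receptors PXR and CAR, 3 were tested and 0 called, and CYP3A4, the main such enzyme in liver, had 0 CPM in all 6 libraries. ABCB1, the drug efflux pump P-glycoprotein, had 478, 112 and 74 counts untreated and 479, 104 and 99 treated, so it followed the replicate number like ITGB4. Its interval ran from -0.96 to 1.05, and with the block from -0.17 to 0.27. Among 12 targets of NRF2, the sensor of oxidative and electrophilic stress, 11 were tested, 3 lay higher and 8 lower, 0 were called and the median was -0.07. HMOX1, heme oxygenase, had 32.2, 50.5 and 58.0 against 28.6, 50.3 and 50.5 CPM, an interval from -0.71 to 0.47.

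Protein-folding and stress lists held no called gene either. All 8 heat shock genes had the interval inside 2-fold. The chaperone HSPA8 had 1911, 1648 and 1759 CPM untreated and 2004, 1750 and 1748 treated, an interval from -0.19 to 0.29. The inducible pair HSPA1A and HSPA1B, with intervals from -0.3 to 0.27 and from -0.28 to 0.26, are near-identical copies, so the split of their reads is uncertain. All 8 genes of the unfolded protein response lay inside 2-fold as well, with a median of 0.04. HSPA5, the chaperone of the endoplasmic reticulum, had 589, 806 and 747 against 571, 798 and 751 CPM. Of 10 ATF4 stress genes 9 lay inside 2-fold, and of 10 p53 targets all 10, with medians of 0.02 and 0.03.

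Metabolic and early-response lists gave the same count of 0 called genes. Of 12 cholesterol synthesis genes 9 lay lower, with a median log2 change of -0.05, and 11 had the interval inside 2-fold. Of 9 hypoxia genes 4 lay higher and 5 lower, with a median of -0.01. NDRG1, a gene induced by low oxygen, had 18.2, 86.6 and 99.0 against 18.3, 90.9 and 95.9 CPM and was low in replicate 1 of both groups. Of 8 immediate-early genes tested 6 lay higher, with a median of 0.11. EGR1, a factor induced within minutes by growth signals, had 9.18, 17.1 and 13.5 against 17.5, 15.1 and 17.8 CPM, an interval from -0.28 to 0.98. Of 7 metallothionein and zinc export genes 5 lay lower, with a median of -0.06, and of 6 drug efflux genes tested 3 lay lower, with a median of 0.01.

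NF-kB and inflammatory genes had wide intervals, and they split by replicate number. Only 2 of 10 tested genes had the interval inside 2-fold, against 10 of 10 with the block, and 0 were called in either fit. CXCL8, a neutrophil chemokine, had 64.4, 285 and 286 CPM untreated and 80.0, 308 and 277 treated. IL1B, a cytokine of inflammation, had 57.6, 278 and 276 against 63.0, 323 and 304 CPM. Both were low in replicate 1 of each group. The interval of CXCL8 was -1.0 to 1.13 without and -0.08 to 0.33 with the block, and that of IL1B -1.02 to 1.37 and -0.01 to 0.34.

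Interferon-stimulated genes, which mark the antiviral state, leaned lower without a call. Of 16 tested, 12 lay lower and 4 higher, with a median of -0.09 and 0 called in either fit, where 0% of all genes were. With the block, 16 of 16 lay inside 2-fold and 4 had an unadjusted p under 0.05, against 2.68% of all genes. IFI6, an interferon-induced mitochondrial protein, had 77.5, 56.2 and 53.8 CPM untreated and 53.8, 48.1 and 42.4 treated. Each treated library was lower than its untreated partner. The log2 change was -0.38 with an interval from -1.29 to 0.53, and -0.37 with the block, with an interval from -0.62 to -0.12. IFI44L had 8.9, 5.48 and 4.74 against 5.56, 4.97 and 3.87 CPM, also lower in every pair, with an interval from -1.32 to 0.48, and from -0.79 to -0.08 with the block. The antiviral GTPase MX1 and the 2′-5′ synthetase OAS2 had block values of -0.33 and -0.27, and intervals without the block from -1.59 to 0.99 and from -1.13 to 0.58. IFIT1 and ISG15 did not share the lean, at -0.05 and 0.01 with the block.

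The machinery that an auxin degron would use was present, with narrow intervals. Such intervals were common at these levels: 90.9% of all genes at 10 to 100 CPM and 94.6% at 100 CPM or more lay inside 1.5-fold. The SCF ligase list holds the scaffold CUL1, the adaptor SKP1, the RING subunit RBX1, the NEDD8 route that activates them and F-box proteins. All 15 genes had the interval inside 1.5-fold, 12 lay higher, 0 were called and the median was 0.03. SKP1 had 164, 155 and 183 CPM untreated and 175, 180 and 162 treated, an interval from -0.18 to 0.27. CUL1 had 57.3, 51.5 and 46.8 against 58.5, 48.1 and 50.6, an interval from -0.24 to 0.27. All 31 proteasome genes also lay inside 1.5-fold, 27 of them higher, with a median of 0.05. Their pair medians were 0.08, 0.17 and -0.12, so pair 3 went the other way. The largest estimate was that of PSMD8 of the regulatory particle, 0.15 with an interval from -0.09 to 0.39.

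HRAS, the RAS gene mutated in T24, was not called. It had 182, 186 and 274 CPM untreated and 194, 218 and 226 treated, with overlapping groups and the highest value in untreated replicate 3. The log2 change was -0.01 with an interval from -0.31 to 0.3. NRAS had 87.6, 73.8 and 72.6 against 82.7, 69.7 and 63.8 CPM, lower in every pair, with a change of -0.11 and an interval from -0.44 to 0.21.

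Transcripts that report cell division had narrow intervals, and those that report ERK signalling had wider ones. The intervals of the ERK list reached from -0.85 to 0.77, and those of the proliferation list from -0.54 to 0.53. All 10 ERK output genes had the interval inside 2-fold, with a median of -0.01, 5 higher and 5 lower. DUSP6, a phosphatase that feeds back on ERK, had 55.6, 89.8 and 86.7 CPM untreated and 66.5, 90.6 and 86.5 treated, a change of 0.07 with an interval from -0.29 to 0.44. DUSP4, another such phosphatase, had 87.0, 93.5 and 91.7 against 74.5, 93.2 and 89.0 CPM, a change of -0.09 with an interval from -0.31 to 0.14. For both the groups overlapped.

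All 26 proliferation genes had the interval inside 1.5-fold, with a median of 0.0. The share was 65.7% over all genes tested and 90.9% over those at 10 to 100 CPM. The mitotic kinase PLK1 had 163, 167 and 171 CPM untreated and 157, 173 and 179 treated, a change of 0.02 with an interval from -0.18 to 0.22. The replicative helicase subunit MCM7 had 261, 211 and 228 against 280, 227 and 231, a change of 0.08 with an interval from -0.19 to 0.34. MKI67, the gene of the Ki-67 antigen, had 475, 575 and 376 against 423, 416 and 531, a change of -0.06 with an interval from -0.43 to 0.32.

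These limits were set against the response of NS1 cells to the same compound. In NS1 cells 1093 genes (6.15%) were called by edgeR's quasi-likelihood test. Of these, 0 were called in WT cells, as for all genes. The WT interval lay inside 2-fold for 1006 of them, against 88.1% of all genes tested. The NS1 estimate lay outside the WT interval for 1086, against 24.5% of all genes tested. The 1093 genes were chosen for their change in NS1 cells, so these counts describe them only. WT and NS1 estimates had the same sign for 455 of the 1093, and the share over all genes is not given here.

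PLK1 had an NS1 log2 change of -0.85, outside its WT interval, and DUSP6 -0.83, also outside. MX1 had an NS1 change of 2.41 and IFI44L 2.32, where the WT estimates were -0.3 and -0.42. The difference between the lines was tested itself for 52 genes of the ERK, proliferation and interferon lists. Without a block 0 of the 52 were called by the edgeR quasi-likelihood test, against 0.0225% of all genes, and 44 had an unadjusted p under 0.05, against 12.4%. With the replicate block within each line, a fit added for this difference after seeing the data, 48 were called, against 14.0% of all genes: 9 of 10 ERK genes, 26 of 26 proliferation genes and 13 of 16 interferon genes. For PLK1 the difference was -0.87, with an adjusted p of 0.0507 without and 0.00014 with the block.

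**Figure D3:**
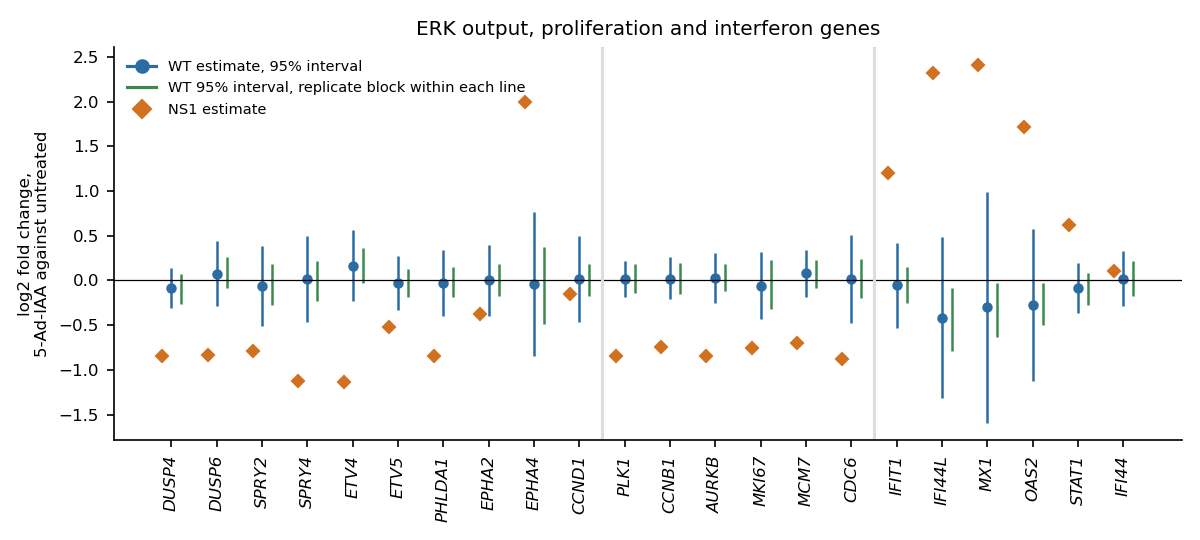
Log2 fold change with 5-Ad-IAA for 10 ERK output, 6 proliferation and 6 interferon genes, separated by grey lines. Blue points and bars are the WT estimate and its 95% interval, green bars the WT interval with the replicate block, and orange diamonds the NS1 estimate. The NS1 estimate lies outside the blue bar for DUSP6 and PLK1 and inside it for CCND1 and IFI44.

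The genes with the lowest unadjusted p in WT cells, named by rule, were expressed at low levels. Among the 5 lower genes was CPEB2 on chromosome 4 (15002674 to 15070153, hg38), a regulator of mRNA translation. It had 7.59, 7.73 and 5.12 CPM untreated and 4.94, 4.97 and 4.05 treated, so the groups did not overlap. The log2 change was -0.56 with an interval from -0.98 to -0.13, at an unadjusted p of 0.014 and an adjusted p of 1 by edgeR. C3orf62 had 2.06, 1.95 and 0.87 against 0.902, 0.964 and 0.81 CPM, and -0.9 with an interval from -1.57 to -0.24. The other 3 were unnamed long non-coding genes.

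The 5 higher genes held 2 antisense transcripts and the proton pump subunit ATP6V1G2, the hydrolase HDDC3 and the potassium channel KCNK3. KCNK3 had 6.84, 6.68 and 7.15 CPM untreated and 8.59, 7.79 and 10.0 treated, without overlap, a change of 0.35 with an interval from 0.06 to 0.63. HDDC3 had 7.26, 5.93 and 6.57 against 9.78, 8.23 and 8.1 CPM, a change of 0.4 with an interval from 0.07 to 0.73. The use of strand in counting is not given in the sources used here, so reads of antisense and overlapping genes could belong to a partner. All 10 had an adjusted p of 1.

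With the block the lowest p values of the higher genes belonged to neighbouring mitochondrial tRNA genes. MT-TC, the tRNA for cysteine (mitochondrial genome, 5761 to 5826, hg38), had 83.7, 79.2 and 97.0 CPM untreated and 140, 109 and 114 treated. The groups did not overlap. Its log2 change with the block was 0.49, with an interval from 0.3 to 0.67, an unadjusted p of 4.85e-05 and an adjusted p of 0.861 by edgeR's quasi-likelihood test. MT-TA (5587 to 5655), the tRNA for alanine, had 70.7, 63.9 and 75.9 against 115, 89.3 and 84.1 CPM and a change of 0.46, and MT-TN (5657 to 5729), the tRNA for asparagine, had 94.5, 88.5 and 112 against 152, 123 and 125 CPM and 0.44. MT-TY, the tRNA for tyrosine that completes this cluster, was chosen after its values were seen, with 0.41. MT-TW next to the cluster had -0.32 with an interval from -0.82 to 0.17. The NS1 estimates were 0.7 for MT-TC and 0.74 for MT-TA. In NS1 cells 0 of the 36 mitochondrial genes tested were called, against 6.15% of all genes. Their median NS1 change was 0.27, with pair medians of 0.61, 0.46 and -0.13, so a rise there is not shown to be particular to these tRNA genes.

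In WT cells the mitochondrial genes as a set did not share the lean of the tRNA cluster, with a median log2 change of -0.04. MT-CO1, a subunit of cytochrome oxidase, had 3086, 7123 and 6048 CPM untreated and 3824, 4917 and 7359 treated, a change of -0.01. MT-ND4, of complex I, had a change of 0.03. Of 36 mitochondrial genes tested 13 lay higher and 23 lower. With the block 8 had an unadjusted p under 0.05 by edgeR, against 2.68% of all genes. Those of the 8 outside the cluster, and their directions, are not given here. Poly(A) selection captures mature tRNAs poorly, so these counts are a small and indirect sample of them.

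The other lowest values with the block were those of KLF9 and RAB3IL1. KLF9, a transcription factor induced by glucocorticoids, had 2.9, 6.61 and 5.51 CPM untreated and 1.66, 4.52 and 3.96 treated, lower in each pair although the groups overlapped. Its estimate was -0.58 with an interval from -1.34 to 0.18. The block value was -0.6 with an interval from -0.93 to -0.26, at an unadjusted p of 0.00172 and an adjusted p of 1. Leaving out 1 library in the fit without a block gave values from -0.89, without untreated replicate 1, to -0.2, without treated replicate 1. RAB3IL1, an exchange factor for Rab GTPases, had 3.65, 5.18 and 6.19 against 2.61, 3.71 and 3.42 CPM, and -0.59 with the block.

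The 3 WT pairs, taken one at a time, did not repeat each other. Over 10568 genes with at least 10 CPM, the within-pair log2 ratios of pairs 1 and 2 had a Spearman correlation over genes of 0.5, but pair 3 correlated by -0.42 with pair 1 and by -0.58 with pair 2. The pairs share no library, and genes are not independent replicates. In NS1 cells the same correlations were 0.73, 0.76 and 0.73. The ratio had the same sign in all 3 pairs for 18.6% of 17775 genes in WT and 57.6% in NS1 cells.

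The opposed direction followed exon length. Over 10514 genes, the correlation of the ratio with exon length was -0.4, -0.51 and 0.45 in WT pairs 1, 2 and 3, against 0.02, 0.2 and -0.02 in NS1 cells. The shortest decile of genes had median ratios of 0.09, 0.18 and -0.15, and the longest decile -0.1, -0.2 and 0.16. The long gene VPS13C, a lipid transfer protein, had pair values of -0.54, -0.73 and 0.77, and FN1 -0.82, -0.4 and 0.73. The short gene DPM3, of dolichol-mannose synthesis, had 0.54, 0.81 and -0.35. These 3 were chosen after their values were seen. FN1 had 3547, 8864 and 3622 CPM untreated and 2008, 6719 and 6006 treated, and its estimate over all pairs was -0.12 with an interval from -0.99 to 0.74.

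Ribosomal protein genes, which are short and highly expressed, showed the same flip. Of 78 tested, 75 lay higher, with a median of 0.06, 78 inside 2-fold and 0 called. Their pair medians were 0.15, 0.31 and -0.25. RPS3A, of the small subunit, had 696, 555 and 821 CPM untreated and 992, 800 and 686 treated. It was higher with treatment in pairs 1 and 2 and lower in pair 3.

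Untreated replicates 2 and 3 were the libraries that stood apart in this measure. Against the mean of the 6 WT libraries, the longest decile exceeded the shortest by 0.07, 0.33 and -0.26 on the log2 scale in untreated replicates 1, 2 and 3, and by -0.12, -0.05 and 0.05 in the treated ones. The chi-square per degree of freedom between replicates 2 and 3 was 18.2 in untreated and 4.2 in treated cells. The source of this spread was not tested. With the trend on length removed from each library, in a step chosen after seeing the data, 0 genes were called and 15671 had the interval inside 2-fold. With the block added as well 0 were called, 543 had an unadjusted p under 0.05, and the lowest adjusted p by edgeR was 0.056, for MT-TC.

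**Figure D4:**
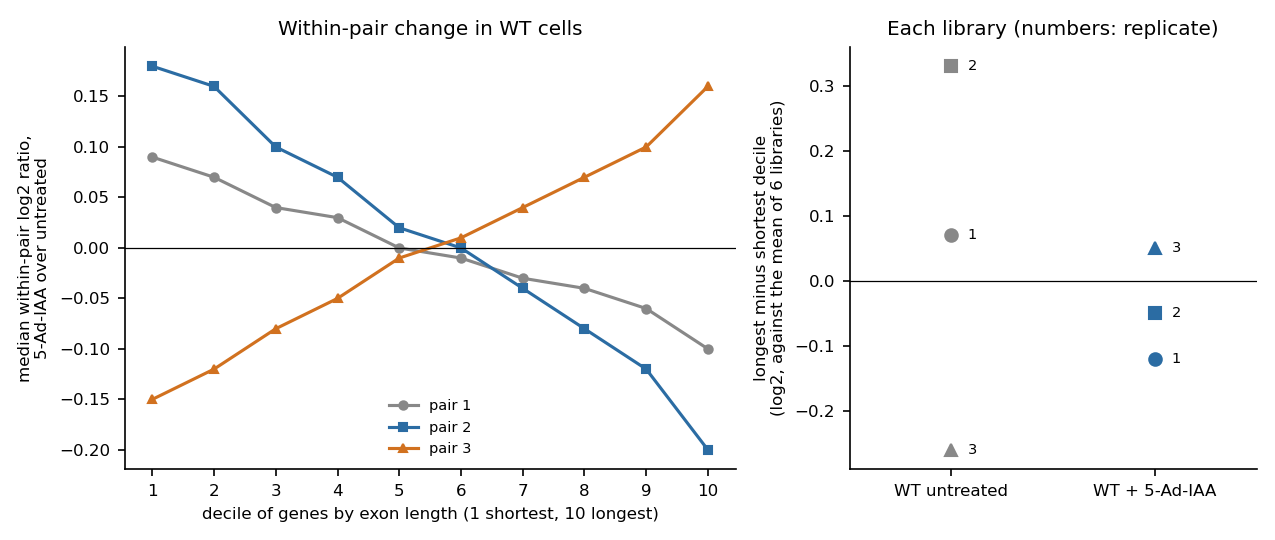
Left, median within-pair log2 ratio of 5-Ad-IAA over untreated WT cells in deciles of genes by exon length, 1 line per pair, with pairs 1 and 2 sloping down and pair 3 up. Right, the longest minus the shortest decile in each library against the mean of the 6, from -0.26 to 0.33 in untreated and -0.12 to 0.05 in treated libraries.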

How the data were processed

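The authors deposited 1 table of raw read counts per gene for 12 libraries, with 60603 genes under versioned Ensembl identifiers. STAR 2.7.3a, featureCounts 1.6.4 and hg38 are named in the submitters' processing notes. Gene models and strand settings are not given in the sources used here. Per the labels, poly(A) RNA was sequenced with a NEBNext Ultra II kit. Columns and libraries were joined by name.

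In edgeR 4.0.16 (R 4.3.3), filterByExpr removed low genes and TMM scaled the libraries. A quasi-likelihood fit to the 12 libraries, with 1 mean for each of 4 groups, gave two-sided tests, with Benjamini-Hochberg adjustment over 17775 genes and a call at an adjusted p under 0.05. The 95% intervals use the moderated spread of that fit. The calls and the intervals of this model were tested on simulated counts, drawn for each library on its own around the group means. These counts held no shared replicate effect and no trend on exon length, so they do not test the model under either. The outcome is not reported here. DESeq2 1.42.0 was an alternative. Symbols were found for 60306 genes, and exon lengths and positions came from GENCODE 29, which holds 58483 of the identifiers, 43869 with the same version. Starts and ends are given only for the latter. Library totals ran from 10593934 to 20266996 counts in WT cells, and p-values and intervals carry the spread between libraries beside counting error.

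Same-numbered WT libraries deviated together (0.75, 0.38 and 0.26), and so did replicates 2 and 3 across numbers (0.37 and 0.25). The number was taken as pairing them, with this reservation for 2 and 3, and fits with a replicate block are given. Other alternatives changed the scaling, the filter, the libraries and the prior count of the within-pair ratios, which was 2.

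Named were the members of 33 gene lists, RAS genes, the 5 genes per direction with the lowest p among those of at least 1 CPM, the 3 per direction with the block, and the 10 highest levels per length. The comparison, the lists and the rule were chosen with earlier results of these data known. List members without values of their own are covered by the counts of their list. Some genes named by the rule are not reported here.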

Additional observations from a re-analysis of the deposited data

Results flagged for a closer look

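For 3 gene lists the median within-pair change went one way in all 3 WT pairs and the other way in all 3 NS1 pairs. At the level of the list the difference was not tested. Interferon-stimulated genes had a WT estimate of -0.09 as the median of 16 genes, with pair medians of -0.17, -0.1 and -0.05 in WT and 0.62, 0.78 and 1.35 in NS1 cells. Targets of the glucocorticoid receptor had -0.11 as the median of 4 tested genes, with -0.21, -0.14 and -0.01 against 0.3, 0.32 and 0.21. Luminal urothelial markers had -0.05 as the median of 7 tested genes, with -0.15, -0.04 and -0.09 against 0.69, 0.63 and 0.41. No member was called for a change in WT cells in either fit. These 3 were picked out of 33 lists for their opposite medians, so the values are a description.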

How the results depend on the processing

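No gene was called in WT cells under any of 20 alternatives, whether the scaling, the filter, the tool, the block, the libraries or the length trend was changed. The number of genes with the 95% interval inside 2-fold ran from 13766 to 16604 around 15665. It was 16566 with a replicate block within each line, 16043 with one block per number and 16394 with a block in the 6 WT libraries alone. Leaving out single WT libraries, or a replicate number in all 4 groups, gave 13766 to 15082 such genes and 0 called genes each time. The difference between the lines moved from 0 to 48 called genes of 52 with the replicate block within each line, a fit added after seeing the data. Genes at an unadjusted p under 0.05 numbered 94, but 476 with that block, 22 with DESeq2 and 443 without untreated replicate 3. The count of 22 baseline markers was the same without TMM scaling. The within-pair correlations were 0.49, -0.42 and -0.58 with a prior count of 0.5. Of 35 genes followed singly, 0 were called under any alternative. Their estimates changed sign in 6 of 308 refits that kept every WT library and in 55 of 315 with WT libraries left out. Of the latter, 3 moved by more than 1 SD, 2 of them for ALDH3A1. Of genes under 1 CPM, 19.2% had an interval inside 2-fold, and 34.9% with the block at the same depth.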
